A study of Mus musculus with 2 samples.

Results

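Sox1, Sox2 and Sox11 are the members described here, 3 genes of the Sox family that have at least 1 macroH2A1 peak assigned to them by symbol in the deposited peak list. They hold 4 of the 2560 listed peaks, and 14 peaks in all lie within 500 kb of these genes. The genes were chosen by their entries in this same list of peaks, so having a peak is not a result. The peaks come from chromatin immunoprecipitation and sequencing (ChIP-seq) of E14, an established line of mouse embryonic stem cells grown untreated on gelatine in medium with 20% serum and leukemia inhibitory factor at 1000 U/ml. The groups were 1 library made with an antibody against macroH2A1, raised against a part of the mouse protein, and 1 library made with IgG, and both come from the same line. Only the peak list of the macroH2A1 library was analysed here. With 1 library per group there is no replicate check, and the list gives no read count, depth or score per peak. A peak list also holds no expression values, so the labelled cell type could not be checked against its markers.

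MacroH2A1 is a histone H2A variant with a large extra globular domain, known from repressed chromatin such as the inactive X chromosome. Sox proteins are transcription factors that bind DNA through an HMG box. Sox2 is a core pluripotency factor of embryonic stem cells and is later a marker of neural progenitors. Sox1, its close relative in the SoxB1 subgroup, appears when cells enter the neural lineage. Sox11 belongs to the SoxC subgroup and acts in maturing neurons and in many developing organs. Embryonic stem cells express Sox2, and Sox1 is widely used as a marker of their entry into neural fate.

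The 3 genes differed in where their peaks lay. Sox1 had 1 peak close upstream of its start, Sox11 had 1 peak on either side of the gene, and Sox2 had 1 distant downstream peak. Distances run from the listed start of the gene to the closest base of the peak, and coordinates are those of the list, in the mouse build mm9. None of the 14 peaks overlapped a Sox gene or covered its start.

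Sox1 (ENSMUSG00000079994) is listed on the plus strand of chromosome 8 at 12396353 to 12397562, and its peak lay at 12392800 to 12394650. That peak was 1851 bp wide and ended 1.70 kb upstream of the start. Among all 2560 peaks, 6.80% were closer to the start of their gene, and among the 1316 peaks of the upstream class 97 were closer. The listed gene is 1210 bp long, against 4037 bp for Sox1 in RefSeq (assembly GRCm38.p6). A start set by the longer model could lie nearer to the peak or within it, which was not tested because the builds differ.

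Sox11 (ENSMUSG00000063632) is listed on the minus strand of chromosome 12 at 28019129 to 28027439. Its upstream peak, at 28045200 to 28046350, lay 17.8 kb from the start. Its downstream peak, at 27998100 to 27999700, lay 27.7 kb from the start and 19.4 kb past the end of the gene. Measured from the nearest edge of the gene, the distances of the 2 peaks differed by 1.67 kb, with the gene between them. The stretch between the peaks was 45.5 kb.

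A pair of own peaks on opposite sides of a gene, both within 50 kb of it, was not common in the list. Pairs at larger distances were not counted. Of the 2132 genes with an assigned peak, 28 (1.31%) had both an upstream and a downstream peak of their own within 50 kb of the gene, Sox11 among them. These were 8.86% of the 316 genes with 2 or more peaks. The criterion was set after the positions at Sox11 had been seen, and it is a description. Of the 28 genes, 19 had a symbol.

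Sox2 (ENSMUSG00000074637) is listed on the plus strand of chromosome 3 at 34548927 to 34551383. Its only assigned peak, at 34700450 to 34702200, lay 152 kb downstream of the start and 149 kb past the end of the gene. Of all peaks, 84.5% were closer to the start of their gene, and of the 834 peaks of the downstream class 79.0% were closer. For comparison, the median distance over all peaks was 32.2 kb.

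The peak nearest to the start of Sox2 was listed under another gene. It lay at 34487300 to 34488850, 60.1 kb upstream of Sox2, and was assigned to ENSMUSG00000084530, a 79 bp gene without a symbol at 34537386 to 34537464. The start of that short gene was 48.5 kb from the peak, and so closer than the start of Sox2. A nearest peak assigned elsewhere was found for 85 of the 2132 assigned genes (3.99%), Sox2 included. For Sox1 and Sox11 the nearest peak was their own. A count by symbol therefore gives Sox2 a single downstream peak, whereas by position it had 1 peak on each side.

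The sequences just before the gene starts are shown because they carry a feature that the choice of the genes did not use, their content of CG. Whether a peak lies over these RefSeq starts was not tested directly, because the builds differ. For Sox2 the gene lengths nearly match, 2457 bp listed and 2467 bp in RefSeq, and the nearest peak lay 60.1 kb from the listed start. The Sox11 lengths are 8311 and 8451 bp, with the nearest peak 17.8 kb from the listed start. At neither gene do these values place a peak at the start. Only the Sox1 lengths differ widely, 1210 and 4037 bp, with a peak 1.70 kb from the listed start. They are the 250 bases before the RefSeq start, in GRCm38.p6 and not in the build of the peaks, read 5′ to 3′ on the strand of the gene, with each CG dinucleotide in capitals. All 3 genes had a match in the RefSeq promoter table. The Sox1 promoter is chr8:12395269-12395518 (plus strand), that of Sox2 is chr3:34649745-34649994 (plus strand), and that of Sox11 is chr12:27342719-27342968 (minus strand).
Sox1: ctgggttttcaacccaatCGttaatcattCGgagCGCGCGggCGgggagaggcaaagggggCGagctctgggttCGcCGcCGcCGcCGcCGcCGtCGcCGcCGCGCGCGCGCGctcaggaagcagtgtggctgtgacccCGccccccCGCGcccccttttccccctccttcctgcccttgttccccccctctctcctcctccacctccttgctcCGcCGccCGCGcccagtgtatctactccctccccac
Sox2: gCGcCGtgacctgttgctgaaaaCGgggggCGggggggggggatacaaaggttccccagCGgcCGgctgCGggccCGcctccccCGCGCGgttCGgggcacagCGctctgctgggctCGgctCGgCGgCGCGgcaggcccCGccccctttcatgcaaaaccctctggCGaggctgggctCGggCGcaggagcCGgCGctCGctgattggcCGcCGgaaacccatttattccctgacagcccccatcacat
Sox11: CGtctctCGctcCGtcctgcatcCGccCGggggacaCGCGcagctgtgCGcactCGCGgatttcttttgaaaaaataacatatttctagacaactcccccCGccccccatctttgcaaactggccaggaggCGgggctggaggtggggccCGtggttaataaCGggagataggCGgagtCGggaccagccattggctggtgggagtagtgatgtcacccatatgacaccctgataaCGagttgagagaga

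The Sox1 and Sox2 promoters were rich in CG, and that of Sox11 was less so, just above the upper quartile. Sox1 had 29 CG dinucleotides and Sox2 had 27, against a median of 6 (interquartile range 2 to 16) over the 32851 upstream stretches of the table. Sox11 had 17. Of all stretches, 93.2% had fewer than Sox1, 91.4% fewer than Sox2 and 76.5% fewer than Sox11, and 92.1% held at least 1 CG. The G and C content was 71.2% for Sox1, 72.0% for Sox2 and 58.0% for Sox11, and the median of the table was 52.4%. The letters GGGCGG, searched on both strands and overlapping with the CG count, occurred 3 times at Sox1 and 2 times each at Sox2 and Sox11, and in 32.7% of all stretches at least once. The letters CCAAT, on both strands, occurred once in each of the 3 and in 33.8% of all stretches. A match describes the sequence and does not show a bound site.

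The number of surrounding peaks differed among the 3 genes. Within 500 kb of the gene there were 9 peaks at Sox1, 2 at Sox2 and 3 at Sox11. The median over the 2132 assigned genes was 2 (interquartile range 1 to 3), and 39 genes (1.83%) had 9 or more. These 39 genes are not independent, because neighbours share their peaks: joined where they lay within 1 Mb of each other, they fell into 13 places on 6 chromosomes. Of the 132 assigned genes on chromosome 8, 2.27% had 9 or more. At the limit of 500 kb, Sox2 and Sox11 stood in the body of the distribution. Of all assigned genes, 68.2% had at least 2 peaks and 37.3% at least 3. Within 1 Mb there were 10 peaks at Sox1, 9 at Sox2 and 4 at Sox11. The difference between Sox1 and Sox2 thus depended on the limit. No test was made of these counts.

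**Figure D1:**
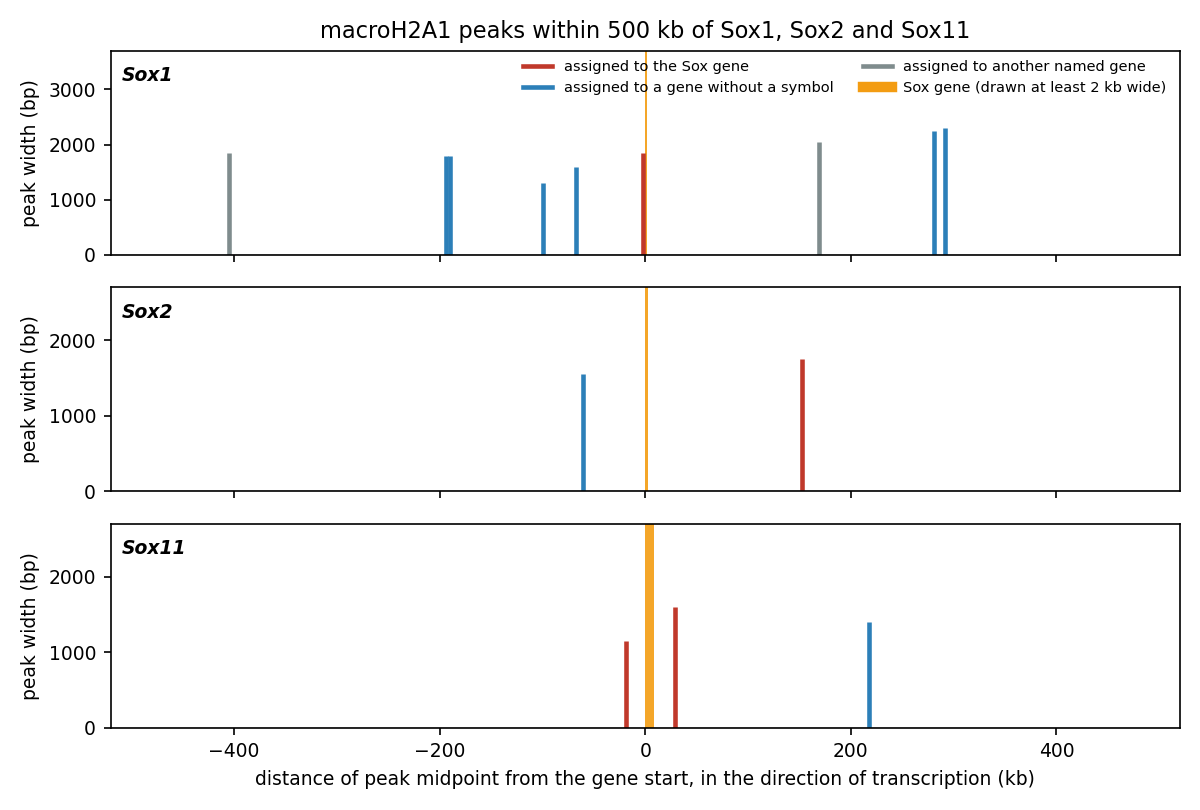
Peaks within 500 kb of Sox1, Sox2 and Sox11, from the 1 macroH2A1 library. The horizontal axis gives the distance of the peak midpoint from the gene start in kb, in the direction of transcription, and the height of each line is the peak width in bp. Red lines are peaks assigned to the Sox gene, blue lines peaks assigned to genes without a symbol and grey lines peaks assigned to other named genes. Sox1 has 9 peaks and its own lies beside the gene, Sox2 has 2 and its own is the farther one, and Sox11 has 3 of which 2 flank the gene.

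**Figure D2:**
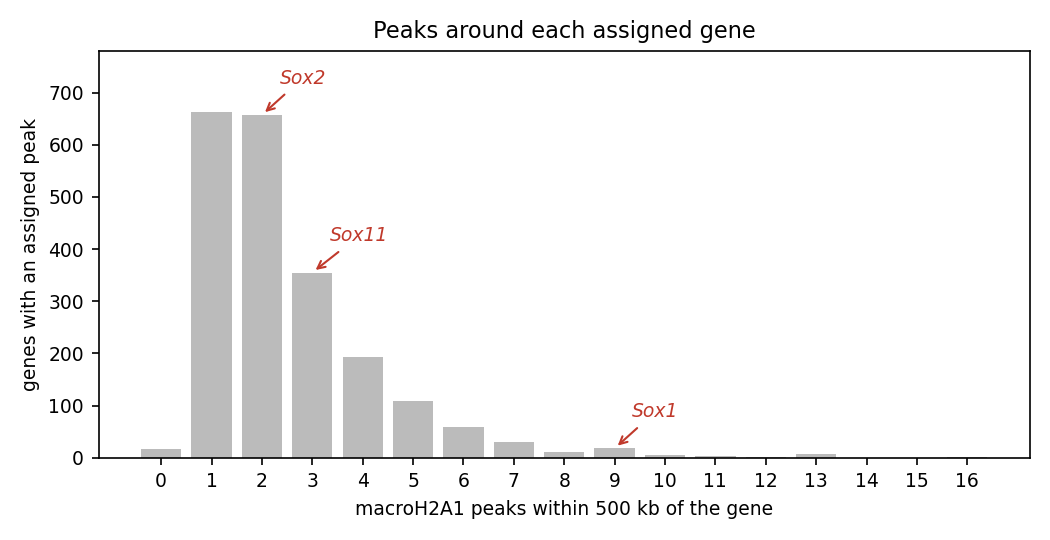
Number of the 2132 assigned genes (vertical axis) by the number of macroH2A1 peaks within 500 kb of the gene (horizontal axis). Arrows mark the bars that hold Sox1 (9 peaks), Sox2 (2) and Sox11 (3).

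The peaks around Sox1 lay mostly upstream, 6 against 3 downstream with its own peak included. Upstream, 4 were assigned to ENSMUSG00000074473, a 1839 bp gene without a symbol at 12278819 to 12280657. The first pair of these, at 12201300 to 12203100 and 12205800 to 12207600, were both 1801 bp wide and 2.70 kb apart, 189 to 193 kb from the Sox1 start. The others lay 99.1 and 66.4 kb from it. The farthest peak inside the window, 404 kb upstream, was assigned to 1700018L24Rik, called Tex29 in the RefSeq table.

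Downstream of Sox1, the peak at 12564000 to 12566050 was 168 kb from the Sox1 start and 6.999 kb from the start of 1700094C09Rik. RefSeq calls that gene Spaca7, a sperm acrosome gene, and it is the next protein-coding gene on that side of Sox1. The remaining pair, at 12675850 to 12678100 and 12686550 to 12688850, were 8.45 kb apart and assigned to ENSMUSG00000054910, also without a symbol. They were the widest of the 9, at 2251 and 2301 bp. A count of peaks by the symbol Sox1 thus takes in 1 of 9 peaks, and 6 of the 9 were assigned to genes without a symbol.

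The single further peak near Sox11 lay at 27808700 to 27810100, 217 kb downstream of the Sox11 start, and was assigned to ENSMUSG00000052076, a 19651 bp gene without a symbol. Over the 3 windows, 8 of 14 peaks (57.1%) were assigned to a gene without a symbol, against 34.8% of the whole list. By window these were 6 of 9 peaks at Sox1, 1 of 2 at Sox2 and 1 of 3 at Sox11. Of the 6 at Sox1, 4 were assigned to ENSMUSG00000074473 and the others to ENSMUSG00000054910. The pooled share thus rests mostly on the Sox1 window. In the RefSeq table the protein-coding neighbours are Dnajc19 and Atp11b for Sox2, Cmpk2 and Dcdc2c for Sox11, and A230072I06Rik and Spaca7 for Sox1. None of the 14 peaks was assigned to a neighbour named Dnajc19, Atp11b, Cmpk2 or Dcdc2c. Sox2 lies within the span of the long non-coding RNA gene Sox2ot and Sox1 within that of Sox1ot in that table, and no gene spans Sox11.

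The limit of 500 kb mattered for Sox2. The farthest peaks inside it were 404 kb from Sox1, 149 kb from Sox2 and 209 kb from Sox11, and the nearest outside it were 796, 590 and 506 kb away, in the same order. Between 500 kb and 1 Mb from Sox2 there were 7 more peaks, all assigned to genes without a symbol. Of these, 5 lay downstream between 35141550 and 35533250 and were assigned to ENSMUSG00000064834, a 105 bp gene whose start was 101 to 491 kb from them. The other 2 lay upstream, at 33855250 to 33856800 and 33892900 to 33894800, under ENSMUSG00000077559 and ENSMUSG00000044434.

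Spacing within the list is wide, and the peaks of the Sox genes were not exceptionally close to another peak. The nearest other peak was 62.8 kb from that of Sox1, 45.5 kb from either peak of Sox11 and 212 kb from that of Sox2, against a median of 224 kb over the list. A closer neighbour was found for 23.3% of peaks in the case of Sox1, 20.1% for Sox11 and 48.5% for Sox2.

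Width was not used to choose the genes. The Sox1 peak was 1851 bp wide, wider than 1920 of the 2560 peaks, and the Sox2 peak 1751 bp, wider than 66.1% of them. The Sox11 peaks were 1601 bp downstream and 1151 bp upstream, wider than 51.4% and 9.77% of the list. Of the 9 peaks around Sox1, 8 were wider than the list median of 1551 bp, with a range of 1301 to 2301 bp and a median of 1851 bp. The Sox2 and Sox11 windows each had 1 peak wider than the list median of 1551 bp. In the whole list 48.6% of peaks were wider than this median. The peaks of 1 window share their surroundings and are not replicates.

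**Figure D3:**
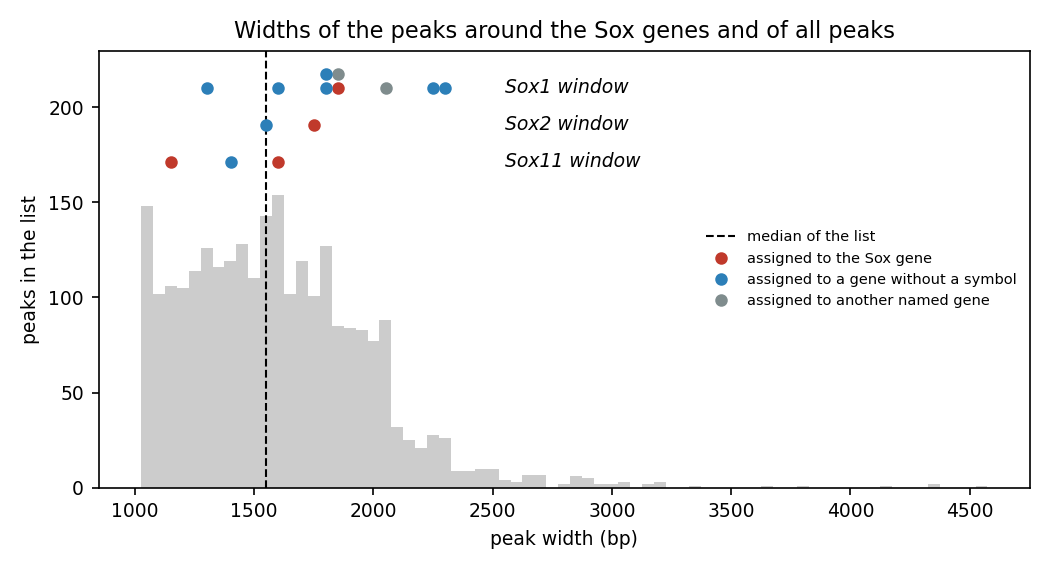
Widths in bp of the peaks around each Sox gene (points, a row per window, stacked where widths are equal) above the number of peaks of each width in the whole list (grey bars). The dashed line is the list median of 1551 bp. In the Sox1 window 8 of 9 points lie to the right of it, and the narrowest point, at 1151 bp, is the upstream peak of Sox11.

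The rest of the Sox family was examined by symbol. Of 19 Sox genes on chromosomes 1 to 19 and X, 4 had an assigned peak (21.1%), against 1331 of 21631 protein-coding genes (6.15%). The 3 members are among the 4 and were chosen for their peaks, so this share is a description. The fourth was Sox13, a SoxD gene on chromosome 1, with a 2051 bp peak 25.1 kb upstream of its start at 135345850 to 135347900. By subgroup, 2 of 3 SoxB1, 1 of 3 SoxC and 1 of 3 SoxD genes had a peak. No SoxB2, SoxE, SoxF, SoxG or SoxH gene had one under its symbol, including Sox17, an endoderm factor, and Sox9 and Sox10, which act in cartilage and neural crest. The Sox genes without a peak by symbol include Sox3, the other SoxB1 gene, and Sox4 and Sox12 of the SoxC subgroup. A Sox gene listed without a symbol could not be counted, and for Sox genes with no assigned peak the list gives no mm9 position.

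Both of the following lists were drawn up with earlier results of these peaks known, so their shares are descriptions. The first list held 15 entries for genes linked to Sox2 in stem cells, both regulators and other genes. Its entry Tcf3 was matched by symbol, to the gene of that name on chromosome 10. Tcf7l1, another gene that has been called Tcf3, was not on the list. Of the 15, 2 had a peak (13.3%, against 6.15% of all protein-coding genes), a small count that was not tested. They were Lefty1, a Nodal inhibitor, at 3.24 kb upstream, and Stat3, the effector of leukemia inhibitory factor, at 11.03 kb upstream. The core factors Pou5f1 and Nanog had none. Of 22 neural progenitor genes, 5 had a peak (22.7%, against 6.15% of all protein-coding genes), also a small count that was not tested. These were Neurog1 at 12.4 kb and Neurog2 at 64.0 kb, both proneural factors, Otx2, a forebrain homeobox gene with 2 downstream peaks at 16.5 and 42.0 kb, Gli2 of the Hedgehog pathway at 88.7 kb, and Vim, an intermediate filament gene, at 91.1 kb. The progenitor genes Pax6, Nes and Pou3f2 had none. The median distance of the Sox family peaks was 25.1 kb over 5 peaks and that of the neural progenitor peaks 53.0 kb over 6, against 32.2 kb for all peaks.

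**Figure D4:**
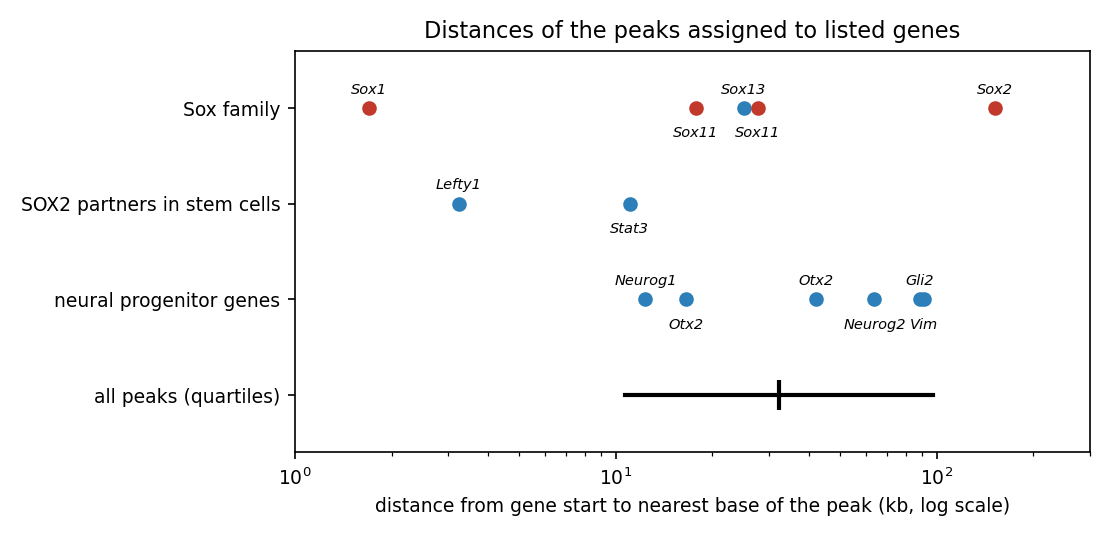
Distance in kb, on a log scale, between the gene start and each assigned peak. The genes are those of the Sox family, of the list of genes linked to Sox2 and of the neural progenitor list. Red points are Sox1, Sox2 and Sox11 and blue points other genes, and the black bar spans the quartiles of all peaks (10.6 to 97.7 kb) with a mark at the median of 32.2 kb. Sox1 is the point closest to a start and Sox2 the farthest.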

How the data were processed

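The deposited file is a list of macroH2A1 peak regions with coordinates, widths and distances in bp, which the authors assigned to the gene with the nearest start, per the file's columns. Per the submitters' processing notes, Bowtie mapped the reads to NCBIM37 (mm9). The names of the peaks start with CCAT, a peak caller, per the file. Its version, threshold and control are not given in these sources.

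Rows were read through the deposited column names, and the width followed from start and end in all 2560 rows. Distances were recomputed from gene start to nearest base, 0 where they overlap. Only the function that computes distances was tested on simulated data. Windows of 500 kb were measured from the gene span. Percentiles were taken over all peaks or over the 2132 assigned genes. Family and list members were matched by symbol to RefSeq protein-coding genes on the same chromosome, and synonyms were used for the background. Shares cover 1 library, so no test was run. The named genes are the 3 members and every gene to which a peak in their windows was assigned. They also include the members with a peak of 3 lists (Sox family, genes linked to Sox2, neural progenitor genes). Members and lists were chosen with earlier results of these data known. Alternatives were midpoint and deposited distances, other windows, wider peaks and synonyms. Python 3.11.15, pandas 2.3.3, numpy 2.4.6 and matplotlib 3.10.9 were used. The IgG library itself was not analysed here.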

Additional observations from a re-analysis of the deposited data

How the results depend on the processing

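The distances depended on the point of the peak from which they were measured, by at most the width of a peak. From the midpoint they were 2.63 kb for Sox1, 152 kb for Sox2, and 28.5 kb (downstream) and 18.3 kb (upstream) for Sox11. With the deposited distance they were 3.55 kb for Sox1 and 29.3 kb for the downstream Sox11 peak. The Sox1 distance thus ranged from 1.70 to 3.55 kb, and the order of the genes was Sox1, Sox11, Sox2 in each case. The number of peaks near Sox2 was 2 within 500 kb, 9 within 1 Mb and 1 among peaks wider than the list median. That near Sox11 was 3 within 500 kb and 1 among the wider peaks. For Sox1 it lay between 6 (within 250 kb) and 10 (within 1 Mb). In 20 alternatives, these Sox1 counts among them, the value stayed within a set tolerance. The tolerance was 1.5 times the main value for a count, the 95% Wilson interval for a width percentile and 50 bp for a distance. The Sox1 count of 6 within 250 kb, against 9 within 500 kb, lay at the limit of that tolerance. The Wilson interval treats the peaks as a random sample and does not measure the spread between libraries. The number of Sox family genes with a peak was 4 with symbols, with synonyms and among wider peaks. Of all protein-coding genes, 5.45% had a peak with exact symbols, 6.15% with synonyms and 3.22% among wider peaks. Of the 4 Sox genes, 3 were chosen for their peaks, so the unchanged count is a description. No paired analysis was possible because each group has 1 library, and no replicate could be left out for the same reason. Depth is unknown, so a Sox gene without a peak may have had a signal below the caller's threshold.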
